A study of Mus musculus with 20 samples.

Results

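The comparison described here sets endothelial cells of the soleus against endothelial cells of the extensor digitorum longus (EDL) in mice whose endothelium lacks Atf4. It holds 10 of the 20 libraries of the series, chosen by their titles: 5 labelled as oxidative muscle endothelial cells with soleus as source, and 5 labelled as glycolytic muscle endothelial cells with the EDL as source, both labelled Atf4-/-. The 2 groups are called soleus ECKO and EDL ECKO, for endothelial cell knockout. All mice were C57BL/6N, and the cells were sorted as CD31+CD45- and taken into lysis buffer for messenger RNA sequencing. Deletion was induced at 8 to 10 weeks of age by 1 mg tamoxifen a day, injected into the abdomen for 5 days, with at least 7 days of rest before any experiment. The other 10 libraries, 5 of soleus and 5 of EDL, carry the label wild type. Controls were Cre-negative littermates treated with tamoxifen in the same way, so drug exposure is shared by all 4 groups. The wild-type libraries entered the same fit, where they share the estimate of the spread, and serve here as the reference of an interaction test, which asks whether a difference between the muscles changes with genotype. The Cre line and the number of animals behind a library are not given in the sources used here, so the p-values reflect the variation among these libraries alone, and part or all of it may be technical.

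ATF4 is a transcription factor whose translation rises when the kinases of the integrated stress response phosphorylate eIF2 alpha. It pairs with C/EBP and other bZIP proteins and drives genes of amino acid uptake, serine and glycine synthesis, tRNA charging and redox defence, and ATF3 is one of its targets. The soleus is a slow, oxidative muscle with a dense capillary bed, and the EDL is a fast, glycolytic muscle. Endothelial cells of muscle capillaries pass fatty acids to the fibres, and their state is known to differ between muscles.

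The libraries held 8013223 to 21061644 estimated counts in the 10 ECKO samples, and levels are given in CPM, the count of a gene brought to a common library size by the trimmed mean of M values. Endothelial identity was clear: the 16 pan-endothelial markers summed to 14500 to 14800 CPM in soleus ECKO and 13800 to 14000 CPM in EDL ECKO. The soleus ECKO libraries did not form a uniform group. Transcripts of Y-linked genes stood at 61.7%, 62.7% and 30.8% of the wild-type mean in libraries 1, 2 and 3, at 0.891% and 1.05% in libraries 4 and 5, and at 0.57% to 1.48% in EDL ECKO. The mean level of fibroblast markers ran in the opposite order, with 1.724, 1.726, 3.414, 4.366 and 4.448 log2 CPM in soleus ECKO against 2.844 to 3.096 in EDL ECKO. Myeloid markers stood at 1.173, 0.8499, 0.7015, 0.206 and -0.09675 log2 CPM in soleus ECKO and at -1.71 to -1.236 in EDL ECKO, although CD45+ cells had been sorted out. Summed over the list they made up 45 to 103 CPM against 15.4 to 17.7 CPM, and 399 to 513 CPM in wild-type soleus. Muscle fibre markers were also higher, at 3.128 to 3.513 against 2.366 to 2.568 log2 CPM. The within-group biological coefficient of variation was 13.4% in soleus ECKO and 6.83% in EDL ECKO. Counts of list members are therefore followed, in brackets or in a sentence of their own, by the higher and lower members counted without soleus ECKO libraries 1 to 3, which carry Y-linked RNA, and without libraries 4 and 5, which do not. In such bulk samples fewer cells of a type and less RNA per cell cannot be told apart.

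**Figure D1:**
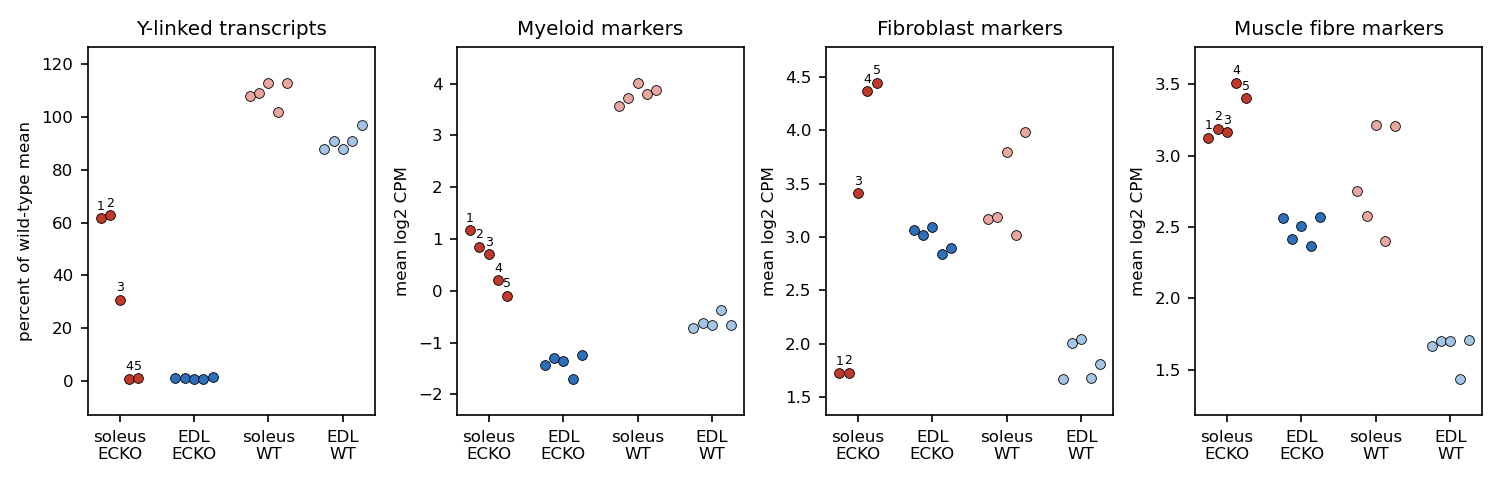
Each point is 1 library, grouped by muscle and genotype, with soleus ECKO libraries numbered. The panels show Y-linked transcripts as a percentage of the wild-type mean, and the mean log2 CPM of myeloid, fibroblast and muscle fibre markers. The soleus ECKO libraries spread from 0.891% to 62.7% for Y-linked RNA and from 1.724 to 4.448 for fibroblast markers, while the EDL ECKO libraries lie together.

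Atf4 itself (ENSMUSG00000042406.8, chr15:80255184-80257541, plus strand, GRCm38) was low in all 10 libraries. It stood at 8.7, 8.16, 8.0, 7.97 and 8.64 CPM in soleus ECKO libraries 1 to 5, and at 8.44, 7.86, 5.79, 7.19 and 7.61 CPM in EDL ECKO. The groups overlapped, and the means of 8.29 ± 0.351 and 7.38 ± 0.996 CPM (SD, n = 5) differed by 0.912 CPM (2-sided exact permutation p = 0.063, where 5 against 5 libraries allow no p under 0.0079). Without EDL ECKO library 1 the difference was 1.18 CPM (exact permutation p = 0.0079). In wild type the same gene stood at 554 ± 21.0 CPM in soleus and 262 ± 13.5 CPM in EDL (SD, n = 5), so the muscle difference of Atf4 was smaller in ECKO (interaction -0.89 ± 0.098 on the log2 scale, SE, edgeR adjusted p = 1.2e-07). Atf3, which encodes a related stress-induced factor, kept a small difference. It stood at 78.5, 79.2, 85.2, 83.6 and 91.0 CPM in soleus ECKO and at 68.5, 61.3, 68.6, 68.1 and 66.1 CPM in EDL ECKO, with every soleus library above every EDL library (exact permutation p = 0.0079, edgeR log2 difference 0.33 ± 0.092, adjusted p = 0.013). Without soleus ECKO libraries 4 and 5 Atf3 no longer passed the test across all genes. In wild type the difference of Atf3 was 2.10, and the interaction was -1.76 (adjusted p = 7.6e-11).

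Between the muscles, 2573 of 13971 genes tested differed in ECKO (18.4%, edgeR quasi-likelihood test, Benjamini-Hochberg adjusted p below 0.05). Of these, 1161 (8.31%) were higher and 1412 (10.1%) were lower in soleus, and the difference was at least 2-fold for 182 (1.3%) and 120 (0.859%) of them. The shares of 8.31% and 10.1% are the background for the ECKO list counts below. A count near them is not a result about its list. All 5 soleus libraries lay above all 5 EDL libraries for 791 genes (5.66%) and below them for 1060 genes (7.59%). In wild type 4520 genes (32.4%) differed, 2295 (16.4%) higher and 2225 (15.9%) lower in soleus, and the interaction was called for 3163 genes (22.6%), 1417 (10.1%) with a higher and 1746 (12.5%) with a lower difference in ECKO. Genes called in the same direction in both genotypes numbered 790, which is 30.7% of the ECKO calls and 17.5% of the wild-type calls. A further 567 genes (22% of the ECKO calls) were called in opposite directions, of which 396 were higher in wild-type soleus and lower in ECKO soleus. The remaining 1216 ECKO calls (47.3%) did not pass in wild type, and for 637 of them the interaction was called. Y-linked RNA was present in all wild-type libraries, at 102% to 113% of their mean in soleus and 88.0% to 97% in EDL. It was nearly absent in EDL ECKO (0.57% to 1.48%) and uneven in soleus ECKO (0.891% to 62.7%). The sex of the animals, which such RNA reflects, was thus not balanced between the genotypes or between the ECKO groups. In the interaction, sex and genotype cannot be told apart. With the Y-linked share of each library as a covariate, 1362 (96.1%) of the higher and 1717 (98.3%) of the lower interaction calls were kept. None of these interaction calls turned sign. Of the ECKO calls, 687 (59.2%) of the higher and 1024 (72.5%) of the lower were kept. Within a group the share varied widely only in soleus ECKO, so its slope rests mainly on those libraries. The fit therefore cannot separate Y-linked RNA from genotype.

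**Figure D2:**
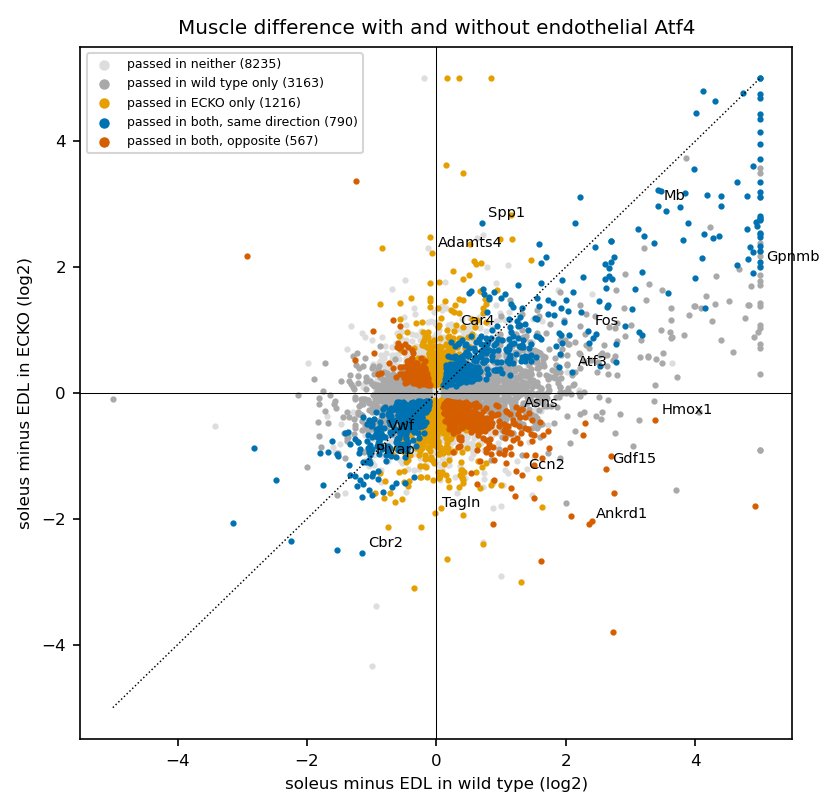
Each point is 1 of 13971 genes, with the log2 difference of soleus minus EDL in wild type on the x axis and in ECKO on the y axis, and values beyond 5 drawn at the edge. Colours give the comparisons in which the gene passed the test. The dotted line marks equal differences, and 567 genes passed with opposite signs.

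Part of these calls depended on which soleus ECKO libraries were in the fit. Leaving out libraries 1 to 3 leaves libraries 4 and 5 alone against EDL ECKO. A smaller group also lowers the power of the test, and its part in the lost calls was not tested. Without soleus ECKO libraries 1 to 3, 617 of the 1161 higher genes (53.1%) and 933 of the 1412 lower genes (66.1%) kept their call, and without libraries 4 and 5 these numbers were 915 (78.8%) and 1064 (75.4%). Over all genes tested, 996 were higher and 1244 lower without libraries 1 to 3, and 1224 and 1441 without libraries 4 and 5. These are the background for the list counts given without those libraries. With the myeloid level of each library as a covariate, 181 of the higher genes (15.6%) and 314 of the lower genes (22.2%) kept their call, and 336 and 186 turned sign. With the muscle fibre level as a covariate 502 (43.2%) and 448 (31.7%) kept it. Neither level overlapped between soleus ECKO and EDL ECKO, so both slopes are taken from differences within groups and extended beyond them. Among the genes named below, Ccl2, Rgs5, Car4, Cldn5, Sox18, Cxcr4, Bgn, Lcn2 and Ccl21a turned sign with the myeloid covariate, and Bst2, Mgp, Aqp1, Thbs4 and Cilp with the fibre covariate. The part of myeloid and fibre RNA in the single results below was not tested otherwise.

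Of the genes that ATF4 is known to drive, fewer were called between the muscles in ECKO than in wild type. Of 20 genes of serine, glycine, asparagine and folate metabolism, 1 was higher and 2 were lower in soleus (0 and 2 without libraries 1 to 3, 1 and 2 without 4 and 5), with a median log2 difference of 0.02 (0.0 over all genes tested), against 15 higher and a median of 1.34 in wild type. The interaction was lower for 14 of the 20. Asns, the asparagine synthetase, stood at 29.8, 30.1, 30.7, 33.4 and 32.8 CPM in soleus ECKO and at 40.0, 36.9, 39.1, 40.6 and 40.4 CPM in EDL ECKO. All soleus libraries lay below all EDL libraries (-0.33 ± 0.055, adjusted p = 8e-05), whereas wild-type soleus lay above EDL (339 ± 21.2 against 141 ± 5.74 CPM, SD, n = 5, interaction -1.59, adjusted p = 9.7e-15). Glul, the glutamine synthetase, was the member that was higher (0.32 ± 0.084), and it lost its call without soleus ECKO libraries 1 to 3. Among 20 amino acid transporters 2 were higher and 2 lower (2 and 6 without libraries 1 to 3, 2 and 2 without 4 and 5), against 13 higher and 1 lower in wild type. Slc38a2, a carrier of small neutral amino acids, was lower in soleus (330 ± 31.1 against 445 ± 12 CPM, -0.43 ± 0.051, adjusted p = 6.4e-07). Slc6a6, the taurine carrier, was higher (312 ± 53.9 against 184 ± 2.83 CPM, 0.77 ± 0.079), with a wild-type difference of 0.76 and no interaction call (adjusted p = 0.96). Slc7a11, which imports cystine, stood at 13.9, 10.3, 11.7, 6.87 and 8.55 CPM against 12.5, 9.19, 14.0, 10.4 and 11.4 CPM, overlapping values that did not pass (-0.17 ± 0.14, adjusted p = 0.46), where the wild-type difference was 1.40. Of 20 cytosolic tRNA synthetases 1 was higher and 3 were lower (0 and 4 without libraries 1 to 3, 2 and 2 without 4 and 5), with a median of -0.03, against 14 higher and 1 lower in wild type. Rars (-0.25 ± 0.061) and Nars (-0.21 ± 0.044) were lower, and Wars was higher (0.27 ± 0.056) and lost its call without libraries 1 to 3.

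Promoters of these genes are shown because the muscle difference of these genes and of Atf3 was smaller or turned in ECKO. Each is the sequence of the 250 bases before the RefSeq transcription start on GRCm38.p6, written on the strand of the gene, with matches to the C/EBP-ATF element TGATGNAA or its reverse complement in capitals. Asns lies at chr6:7693210-7693459 on the minus strand, Slc7a11 at chr3:50443614-50443863 on the minus strand and Atf3 at chr1:191183334-191183583 on the minus strand.
Asns: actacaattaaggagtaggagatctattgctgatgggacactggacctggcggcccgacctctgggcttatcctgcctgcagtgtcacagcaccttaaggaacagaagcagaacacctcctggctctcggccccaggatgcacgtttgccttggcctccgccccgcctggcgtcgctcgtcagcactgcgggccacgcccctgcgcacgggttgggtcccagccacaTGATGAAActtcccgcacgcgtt
Slc7a11: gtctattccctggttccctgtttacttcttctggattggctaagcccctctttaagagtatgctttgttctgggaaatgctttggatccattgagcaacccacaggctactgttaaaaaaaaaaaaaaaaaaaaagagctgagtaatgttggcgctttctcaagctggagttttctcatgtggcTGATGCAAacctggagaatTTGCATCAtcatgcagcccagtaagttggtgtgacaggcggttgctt
Atf3: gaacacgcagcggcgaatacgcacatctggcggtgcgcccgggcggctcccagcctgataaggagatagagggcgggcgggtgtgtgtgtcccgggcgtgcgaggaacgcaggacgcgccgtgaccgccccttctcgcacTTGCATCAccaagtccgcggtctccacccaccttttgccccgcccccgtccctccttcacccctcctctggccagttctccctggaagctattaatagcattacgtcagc
The match begins 23 bases before the start in Asns, 66 and 47 bases before it in Slc7a11 and 110 bases before it in Atf3. Promoter sequence was matched for 10245 of 13959 symbols tested, counting windows from 250 bases before to 50 bases after the start, and 2.21% of them held this element. The share was 3.06% among genes higher in ECKO soleus, 1.36% among genes lower there, and 4.04% among genes higher in wild-type soleus whose difference was smaller or turned in ECKO. By list it was 5 of 12 tRNA synthetases (41.7%), 3 of 13 transporters (23.1%), 3 of 17 genes of amino acid metabolism (17.6%) and 5 of 19 stress regulators (26.3%). A match describes these letters and does not show binding.

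Stress regulators and redox genes included members that turned over. Among 21 regulators of the integrated stress response 3 were higher and 3 lower in soleus ECKO (3 and 3 without libraries 1 to 3, 3 and 4 without 4 and 5). Gdf15, a secreted stress factor that acts on the brain stem, stood at 24.8, 23.0, 22.3, 17.2 and 25 CPM in soleus and at 49.2, 59.2, 53.6, 48.5 and 52.3 CPM in EDL. Every soleus library was below every EDL library (-1.22 ± 0.082, adjusted p = 4.7e-11), and the wild-type order was the reverse, with 183 ± 11.2 against 29.8 ± 2.46 CPM (interaction -3.84, adjusted p = 1.1e-18). Of 22 oxidative stress genes none was higher and 8 were lower, with a median of -0.09, against 10 higher and 3 lower in wild type. Hmox1, the heme oxygenase, stood at 113, 115, 98.5, 72.6 and 83.7 CPM against 129, 128, 130, 132 and 128 CPM (-0.43 ± 0.086, adjusted p = 0.00064), where wild-type soleus stood at 1620 ± 122 CPM. Gclm, a subunit of the enzyme that opens glutathione synthesis, was lower (88.2 ± 10.6 against 128 ± 4.59 CPM, -0.54 ± 0.061). Txnrd1, the thioredoxin reductase (-0.40 ± 0.053), Mt1, a metallothionein (-0.47 ± 0.077), and Nqo1, a quinone reductase (-0.47 ± 0.067), were lower as well. For Nqo1 the wild-type difference was also negative (-0.71), and for Gclm, Txnrd1 and Mt1 it was positive, with interaction calls. The list held 2 higher and 10 lower genes without libraries 1 to 3, and 1 and 7 without libraries 4 and 5. Among 18 p53 targets 2 were higher and 5 lower (2 and 8 without libraries 1 to 3, 6 and 2 without 4 and 5), against 15 higher and 2 lower in wild type.

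A muscle difference that remained in ECKO was that of immediate early genes, transcription factors and phosphatase genes that switch on within minutes of growth signals, shear or tissue handling. Of 26 members 16 were higher and 2 lower in soleus, with a median of 0.38, against 22 and 2 with a median of 0.79 in wild type, and the interaction was lower for 15 and higher for 2. Fos stood at 311, 342, 349, 412 and 409 CPM in soleus ECKO and at 178, 186, 183, 186 and 189 CPM in EDL ECKO. The groups were well apart (0.98 ± 0.075, adjusted p = 4e-10), and the wild-type difference was larger (2.35, interaction -1.37, adjusted p = 2e-10). Egr1, a zinc finger factor, stood at 214, 233, 280, 370 and 363 CPM against 142 to 149 CPM (1.00 ± 0.099). Libraries 4 and 5 were the highest for Fos and Egr1, whereas for Junb, an AP-1 subunit, libraries 1 and 2 were the highest (404, 414, 348, 317 and 271 CPM against 189 to 206 CPM, 0.85 ± 0.081). Fosb (1.07 ± 0.10) and the growth inhibitor Btg2 (0.51 ± 0.051) were higher too. The members that went the other way were Myc (69.2 ± 15.1 against 94.3 ± 3.07 CPM, -0.45 ± 0.10) and Fosl1 (-0.47 ± 0.15, adjusted p = 0.027), which lost its call without libraries 4 and 5 and when single libraries were left out. The list held 15 higher and 2 lower genes without libraries 1 to 3, and 13 and 2 without libraries 4 and 5. Among chemokine and cytokine genes 4 of 15 were higher and 1 was lower (3 and 2 without libraries 1 to 3, 4 and 2 without 4 and 5). Ccl2, which draws monocytes, stood at 82.9, 72, 74.6, 52.1 and 37.3 CPM against 20.3 to 26.5 CPM (1.37 ± 0.15), highest in library 1 and lowest in library 5, as the myeloid level was. Hspa1a, an inducible heat shock gene with a near-identical copy, was higher (108 ± 32.5 against 45.1 ± 2.79 CPM, 1.26 ± 0.17), and of 15 cytosolic heat shock genes 2 were higher and 3 lower. That count was 1 and 3 without libraries 1 to 3, 6 and 1 without libraries 4 and 5, and 9 and 0 with the fibre level as a covariate.

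Interferon response genes were higher in ECKO soleus and lower in wild-type soleus. Of 18 members 14 were higher and 2 lower, with a median of 0.25, against 2 higher and 11 lower in wild type, and the interaction was higher for 15 and lower for none. The differences were small. Ifit1, which binds foreign RNA, stood at 90.0, 90.8, 90.7, 99.9 and 97.1 CPM in soleus ECKO and at 71.6, 64.9, 74.4, 68.9 and 66.6 CPM in EDL ECKO. All soleus libraries lay above all EDL libraries (0.43 ± 0.066, adjusted p = 2.6e-05), while in wild type soleus lay below EDL (45.4 ± 6.11 against 62.5 ± 3.50 CPM, interaction 0.90, adjusted p = 6.2e-08). Ifit3, which has a near-identical copy, was higher in the same way (105 ± 4.98 against 79.7 ± 4.78 CPM, 0.40 ± 0.053), and its wild-type difference was -0.42. Rsad2, the antiviral viperin, stood at 155, 162, 128, 124 and 121 CPM against 75.5, 77.0, 80.3, 81.7 and 86.0 CPM (0.78 ± 0.070), with a positive difference in wild type too (0.45). Bst2 (tetherin, -0.15 ± 0.049) and Ifi35 (-0.14 ± 0.047) were the lower members, and both lost their calls without libraries 4 and 5 and when single libraries were left out. The list held 12 higher and 2 lower genes without libraries 1 to 3, and 11 and 0 without libraries 4 and 5. Of 10 genes of class I antigen presentation 1 was higher and none lower in ECKO, with and without either set of libraries, where all 10 were lower in wild-type soleus, and the interaction was higher for all 10.

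The promoters of Ifit1 and Ifit3 are shown as examples of the group whose order turned. They are given as above, with matches to the interferon element (GAAA, any 2 bases, GAAA) or its reverse complement in capitals. Ifit1 lies at chr19:34640639-34640888 on the plus strand, with matches that begin 104 and 85 bases before the start, and Ifit3 at chr19:34583279-34583528 on the plus strand, with matches at 156 and 122 bases.
Ifit1: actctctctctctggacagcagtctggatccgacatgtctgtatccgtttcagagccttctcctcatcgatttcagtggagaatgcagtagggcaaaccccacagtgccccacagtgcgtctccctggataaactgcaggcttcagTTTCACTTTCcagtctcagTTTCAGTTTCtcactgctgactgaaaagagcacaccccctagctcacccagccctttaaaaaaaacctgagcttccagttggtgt
Ifit3: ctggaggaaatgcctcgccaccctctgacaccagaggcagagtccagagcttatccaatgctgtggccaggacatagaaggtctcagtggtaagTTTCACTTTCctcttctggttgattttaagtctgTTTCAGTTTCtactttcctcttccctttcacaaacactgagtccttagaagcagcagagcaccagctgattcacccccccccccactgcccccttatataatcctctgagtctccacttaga
The element was present in 3.18% of all promoters, in 4.7% of those of genes higher in ECKO soleus, in 2.89% of those of genes lower there, and in 7 of 14 promoters of the interferon list.

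A group lower in soleus ECKO than in EDL ECKO held actin cytoskeleton genes and targets of serum response factor (SRF) and the YAP coactivator. The list summed to 20100 to 22600 CPM in soleus ECKO and 28200 to 28500 CPM in EDL ECKO. In wild type it summed to 21400 to 23200 CPM in soleus and 20300 to 21600 CPM in EDL, so EDL ECKO stood highest. Much of the ECKO sums was Actb. Of 19 members none was higher and 11 were lower, with a median of -0.29, against 5 higher and 1 lower in wild type, and the interaction was lower for 9. Ankrd1, a YAP target, stood at 48.7, 38.4, 38.9, 27.5 and 82.8 CPM in soleus ECKO and at 205, 209, 204, 202 and 203 CPM in EDL ECKO. The groups were far apart (-2.08 ± 0.16, adjusted p = 4.6e-10), and the wild-type order was the reverse (80.2 ± 6.52 in soleus against 15.4 ± 1.63 CPM in EDL, interaction -4.45, adjusted p = 2e-13). Ccn2, a matrix-bound signalling protein, stood at 476, 485, 528, 389 and 647 CPM against 1270, 1250, 1250, 1260 and 1210 CPM (-1.31 ± 0.087), and it too was higher in wild-type soleus (1.32). Ccn1, its relative, was lower by the same pattern (1630 ± 155 against 2410 ± 42.0 CPM, -0.56 ± 0.059). Among the cytoskeletal members, Actb was lower (10500 ± 401 against 13800 ± 246 CPM, -0.39 ± 0.034), as were Tagln2 (-0.56 ± 0.046), the calponin Cnn2 (-0.53 ± 0.045) and the actin crosslinker Flna (-0.54 ± 0.086). For these 4 genes the wild-type difference did not pass and the interaction was called. Fhl2, a LIM protein gene outside the list, stood at 15.1, 18.4, 17.3, 10.9 and 19.2 CPM against 42.2, 41.5, 48.5, 42.5 and 42.8 CPM (-1.42 ± 0.13). The list held 1 higher and 11 lower genes without libraries 1 to 3 and 0 and 11 without libraries 4 and 5, and 9 with the myeloid and 8 with the fibre level as a covariate.

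Some smooth muscle genes were lower as well, while other mural cell markers were higher or not called. Acta2, the smooth muscle actin, stood at 351, 347, 341, 270 and 499 CPM in soleus ECKO and at 1040, 1020, 1010, 1010 and 1030 CPM in EDL ECKO (-1.50 ± 0.092, adjusted p = 2.7e-11). In wild type it stood at 216 ± 13.6 and 189 ± 1.75 CPM, so the highest level was that of EDL ECKO. Tagln, an actin-binding protein of smooth muscle, showed the same order (120, 121, 129, 96.8 and 219 against 538, 530, 501, 510 and 515 CPM, -1.91 ± 0.13). Of 13 pericyte and smooth muscle markers 2 were higher and 5 lower (4 and 4 without libraries 1 to 3, 1 and 6 without 4 and 5). The 2 higher members are not named here. The list summed to 900 to 1320 CPM in soleus ECKO and 2090 to 2160 in EDL ECKO. In wild type it summed to 655 to 765 CPM in soleus and 944 to 962 in EDL. Acta2, Tagln and Rgs5 made up most of the sum in EDL ECKO. The smooth muscle myosin Myh11 was lower (14.5 ± 2.80 against 24.5 ± 2.69 CPM, -0.74 ± 0.14). The pericyte marker Rgs5 stood at 234, 228, 260, 354 and 351 CPM against 355 to 376 CPM (-0.35 ± 0.092) and lost its call without libraries 1 to 3, and the pericyte receptor gene Pdgfrb did not pass (0.15, adjusted p = 0.45). The part of RNA from mural cells in the cytoskeletal group was not tested.

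Promoters of Cnn2 and Fhl2, lower in soleus ECKO than in EDL ECKO, were picked as holding a CArG box, the DNA element that SRF binds. They are given as above with the CArG box in capitals. Cnn2 lies at chr10:79988350-79988599 on the plus strand with the box 56 bases before the start, and Fhl2 at chr1:43163962-43164211 on the minus strand with the box 31 bases before the start, the second of 2 starts in the table.
Cnn2: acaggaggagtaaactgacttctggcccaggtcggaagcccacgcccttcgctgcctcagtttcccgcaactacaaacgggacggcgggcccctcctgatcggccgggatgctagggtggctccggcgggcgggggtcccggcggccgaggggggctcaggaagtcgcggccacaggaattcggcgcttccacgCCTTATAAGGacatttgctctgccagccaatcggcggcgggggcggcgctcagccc
Fhl2: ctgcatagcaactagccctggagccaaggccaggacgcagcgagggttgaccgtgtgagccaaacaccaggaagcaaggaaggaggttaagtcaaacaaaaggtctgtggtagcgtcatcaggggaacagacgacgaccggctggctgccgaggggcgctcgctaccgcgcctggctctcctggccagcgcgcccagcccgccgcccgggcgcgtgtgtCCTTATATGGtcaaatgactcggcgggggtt
A CArG box was present in 1.41% of all promoters, in 2.98% of those of genes lower in ECKO soleus, in 1.29% of those of genes higher there, and in 4 of 17 promoters of the cytoskeletal list (23.5%). These shares use the first listed start of each gene, which for Fhl2 is not the start shown. The scan covered 10 motifs, and shares of the others are not given in full. Among genes lower in ECKO soleus the E-box CACGTG (13.7% against 10.2% of all promoters) and the hypoxia element ACGTG (29.2% against 25.7%) were also more frequent. The cAMP response element TGACGTCA was less frequent there (2.44% against 3.23%).

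**Figure D3:**
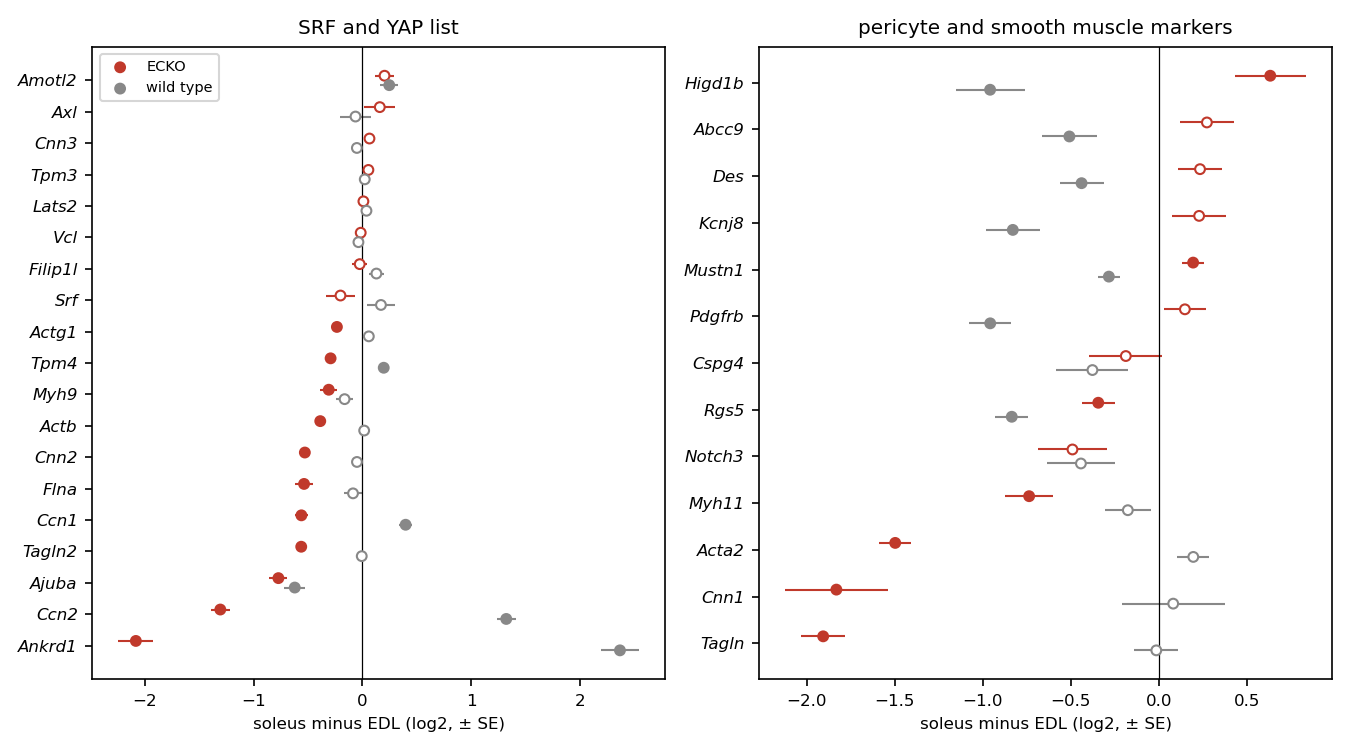
Points give the log2 difference of soleus minus EDL for each tested member of the SRF and YAP list and of the pericyte and smooth muscle markers, with bars for the SE. Red stands for ECKO and grey for wild type, filled where the gene passed the test. In ECKO 11 of 19 cytoskeletal genes lie below 0 with a call, and Ankrd1 and Ccn2 lie on opposite sides of 0 in the 2 genotypes.

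Genes of blood clotting, of matrix signalling and of vessel tone also had members that were lower. Of 12 coagulation and fibrinolysis genes none was higher and 5 were lower in ECKO soleus (1 and 5 without libraries 1 to 3, 0 and 5 without 4 and 5), with a median of -0.31, against 7 higher and 1 lower in wild type, and the interaction was lower for 6. Thbs1, thrombospondin, stood at 766, 736, 726, 471 and 732 CPM against 1320, 1230, 1300, 1310 and 1270 CPM (-0.90 ± 0.086), where wild-type soleus was above EDL (0.62, interaction -1.53). Procr, the protein C receptor (57.0 ± 8.03 against 105 ± 3.44 CPM, -0.88 ± 0.070), and Plaur, the urokinase receptor (-0.60 ± 0.070), were lower. Both were higher in wild-type soleus, and their interactions were called. Fn1, fibronectin, was lower (336 ± 30.1 against 492 ± 13.2 CPM, -0.55 ± 0.084, wild type 1.37), and so was the growth factor gene Tgfb2 (-0.80 ± 0.10). Of 19 vasomotor genes 3 were higher and 6 lower (6 and 5 without libraries 1 to 3, 3 and 7 without 4 and 5). Lower were the peptide Adm (174 ± 19.8 against 271 ± 17.7 CPM, -0.64 ± 0.067), the vasoconstrictor Edn1 (-0.38 ± 0.083) and Ddah1, which clears an inhibitor of nitric oxide synthase (73.8 ± 7.97 against 134 ± 3.79 CPM, -0.86 ± 0.057). The flow-responsive factor Klf4 was higher (0.46 ± 0.094).

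Genes that mark vein and venule endothelium were lower in soleus in both genotypes. Of 12 members none was higher and 7 were lower in ECKO, with a median of -0.43, against 2 higher and 8 lower in wild type. Vwf, the von Willebrand factor, stood at 149, 170, 171, 165 and 175 CPM in soleus ECKO and at 271, 273, 270, 260 and 267 CPM in EDL ECKO. The groups were well apart (-0.69 ± 0.053, adjusted p = 3.7e-10), with -0.85 in wild type and no interaction call (adjusted p = 0.13). Ackr1, the chemokine-binding receptor of venules (32.1 ± 3.89 against 57.2 ± 5.05 CPM, -0.84 ± 0.073), and Slco2a1, a prostaglandin carrier (-0.89 ± 0.083), were also lower in both genotypes. Selp, the leukocyte adhesion molecule P-selectin, was lower in ECKO (33.3 ± 2.98 against 60.6 ± 2.15 CPM, -0.87 ± 0.063) and not called in wild type (-0.13, interaction adjusted p = 2e-07). Sele, E-selectin, was lower too (-1.27 ± 0.17), and among 17 genes of leukocyte adhesion and NF-kappa B 2 were higher and 5 lower (1 and 6 without libraries 1 to 3, 3 and 5 without 4 and 5). Plvap, which builds the diaphragms of fenestrae and caveolae, stood at 262, 263, 280, 286 and 301 CPM against 559, 592, 604, 589 and 571 CPM (-1.07 ± 0.045, adjusted p = 1.2e-14), with -1.04 in wild type and no interaction call. Of 9 caveola genes none was higher and 3 were lower (0 and 3 without libraries 1 to 3, 1 and 4 without 4 and 5). Of 18 arterial genes 2 were higher and 8 lower (3 and 7 without libraries 1 to 3, 4 and 9 without 4 and 5), with a median of -0.18. The lower members included the connexin Gja5 (32.8 ± 4.34 against 55.7 ± 7.95 CPM, -0.78 ± 0.085), Clu (-0.81 ± 0.065), elastin (Eln, -0.62 ± 0.067) and Gkn3 (-1.45 ± 0.17). Mgp, which limits calcification, was higher instead (0.59 ± 0.11). The venous list held 6 lower genes without libraries 1 to 3, and 8 lower and 1 higher without libraries 4 and 5.

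Of 15 capillary markers 4 were higher and 3 lower (6 and 3 without libraries 1 to 3, 4 and 4 without 4 and 5). Car4, the carbonic anhydrase of capillary walls, stood at 533, 546, 400, 294 and 300 CPM in soleus ECKO and at 206, 204, 222, 207 and 207 CPM in EDL ECKO (0.98 ± 0.12, adjusted p = 1.5e-06). Libraries 1 and 2 were the highest and libraries 4 and 5 the lowest, and all were above EDL. Aqp1, the water channel, was lower (9130 ± 217 against 10800 ± 464 CPM, -0.24 ± 0.058). Fatty acid uptake genes showed 6 of 17 higher and 1 lower, against 4 and 4 in wild type. Lpl, the lipoprotein lipase, stood at 1160, 1210, 945, 854 and 834 CPM against 570, 556, 578, 566 and 568 CPM (0.82 ± 0.075), a larger difference than in wild type (0.23, interaction 0.59, adjusted p = 0.00014). Cd36, the fatty acid translocase (4940 ± 452 against 3420 ± 109 CPM, 0.53 ± 0.053), and the fatty acid binding protein Fabp4 (3850 ± 290 against 3050 ± 69.7 CPM, 0.34 ± 0.064) were higher, neither was called in wild type, and both interactions were called. Pparg, the nuclear receptor that drives lipid uptake genes, was higher as well (0.48 ± 0.071, interaction 0.55). Fabp3, the binding protein of heart and slow muscle, was higher (3.86 ± 0.972 against 0.661 ± 0.344 CPM, 2.61 ± 0.32), beside the fibre markers, which include 6 of 9 slow fibre genes. Slc27a3 was the member that was lower (-0.99 ± 0.11, wild type -1.03). The list held 8 higher and 1 lower genes without libraries 1 to 3, and 6 and 1 without libraries 4 and 5. Of 24 genes of fatty acid oxidation 2 were higher and none lower (5 and 0 without libraries 1 to 3, 2 and 0 without 4 and 5). With all libraries this was close to the 8.31% called higher over all genes tested.

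Mitochondrially encoded transcripts made up 5.19% to 7.83% of counts in soleus ECKO and 3.94% to 4.14% in EDL ECKO, with no overlap (means 6.44 ± 1.15% and 4.03 ± 0.0949%, SD, n = 5, exact permutation p = 0.0079). Of the 13 coding genes 12 were higher and none lower, with a median of 0.71, against all 13 and 1.33 in wild type, and the interaction was lower for all 13. For mt-Co1, a subunit of cytochrome oxidase, the libraries stood at 23700, 23500, 19200, 16200 and 15800 CPM against 10500 to 11200 CPM (0.84 ± 0.086). Without libraries 1 to 3, 11 were higher with a median of 0.39, and without libraries 4 and 5, 13 with a median of 0.9. None of the 13 was called with the myeloid level as a covariate (median -0.05), and 13 were called with the fibre level. Of 40 nuclear genes of the respiratory chain 1 was higher and 7 were lower (0 and 15 without libraries 1 to 3, 2 and 4 without 4 and 5). Of 22 genes of glycolysis and lactate handling none was higher and 7 were lower (2 and 7 without libraries 1 to 3, 1 and 6 without 4 and 5), among them the enolase Eno1 (458 ± 28.6 against 584 ± 3.52 CPM, -0.35 ± 0.043) and the lactate dehydrogenase Ldha (-0.19 ± 0.043). Both were lower in wild-type soleus too, with smaller differences in ECKO. Ribosomal protein genes were lower for 19 of 40 and higher for none (median -0.13), and lower for 17 without either set of libraries, against 19 higher in wild type. For Rps18 the levels were 463 ± 20.2 against 593 ± 3.70 CPM (-0.36 ± 0.038). Many of these genes have processed copies that can share reads and are uncertain.

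Junction genes were higher for 7 of 15 and lower for none (7 and 0 without libraries 1 to 3, 7 and 3 without 4 and 5), against 1 higher and 8 lower in wild type, with a higher interaction for 10. Cldn5, the main endothelial claudin, stood at 1290, 1350, 1210, 957 and 903 CPM in soleus ECKO and at 793, 834, 820, 841 and 792 CPM in EDL ECKO. All soleus libraries were above EDL (0.48 ± 0.077), while in wild type soleus was below EDL (-0.44, interaction 0.93, adjusted p = 3.3e-07). Pecam1, which encodes CD31, the antigen of the sort, was higher in the same way (1860 ± 116 against 1430 ± 26.7 CPM, 0.38 ± 0.042, wild type -0.18). Endothelial transcription factors showed 9 of 28 higher and 2 lower (7 and 0 without libraries 1 to 3, 8 and 6 without 4 and 5). Bcl6b, a zinc finger repressor, was higher (0.76 ± 0.082), as was Sox18 (572 ± 146 against 389 ± 19.4 CPM, 0.55 ± 0.11), which lost its call without libraries 1 to 3. In the BMP branch, Smad1 (77.9 ± 5.92 against 50.5 ± 2.39 CPM, 0.62 ± 0.056), the ligand gene Bmp6 (0.51 ± 0.069) and the SMAD target Id1 (930 ± 42.1 against 636 ± 12.3 CPM, 0.55 ± 0.092) were higher, and each had a higher interaction. Of the 22 genes of the TGF-beta and BMP list 8 were higher and 4 lower (6 and 4 without libraries 1 to 3, 9 and 5 without 4 and 5). Of 16 Notch genes 3 were higher and 3 lower (2 and 2 without libraries 1 to 3, 6 and 6 without 4 and 5), with the ligand Dll4 (380 ± 19.6 against 306 ± 9.56 CPM, 0.31 ± 0.048) and the target Hes1 (0.67 ± 0.097) among the higher.

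Genes of sprouting, basement membrane and matrix turnover were mixed. Of 19 sprouting genes 6 were higher and 4 lower (6 and 6 without libraries 1 to 3, 9 and 4 without 4 and 5). Cxcr4, the chemokine receptor of tip cells and of leukocytes, stood at 28.9, 26.9, 27.4, 17.7 and 14.7 CPM against 6.64 to 8.68 CPM (1.57 ± 0.20). Of 19 basement membrane genes 6 were higher and 7 lower (5 and 7 without libraries 1 to 3, 5 and 9 without 4 and 5). Higher were the nidogen Nid2 (85.4 ± 8.20 against 52.5 ± 4.87 CPM, 0.70 ± 0.086) and the laminin chain Lamb1 (0.36 ± 0.061). Lower were Col18a1, the collagen that gives rise to endostatin (104 ± 18.8 against 226 ± 5.89 CPM, -1.11 ± 0.096, wild type -1.02), and the proteoglycan Bgn (-0.92 ± 0.13). Adamts4, a protease of proteoglycans, stood at 23.9, 23.6, 20.7, 12.3 and 8.37 CPM against 2.81 to 4.87 CPM (2.23 ± 0.24), with no wild-type call and an interaction of 2.30. The insulin-like growth factor binding proteins Igfbp3 (-0.55 ± 0.050) and Igfbp4 (-0.80 ± 0.075) were lower in both genotypes. Cholesterol synthesis, lower for 20 of 23 genes in wild-type soleus, was higher for none and lower for 2 in ECKO (1 and 2 without libraries 1 to 3, 1 and 2 without 4 and 5), with a higher interaction for 14.

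**Figure D4:**
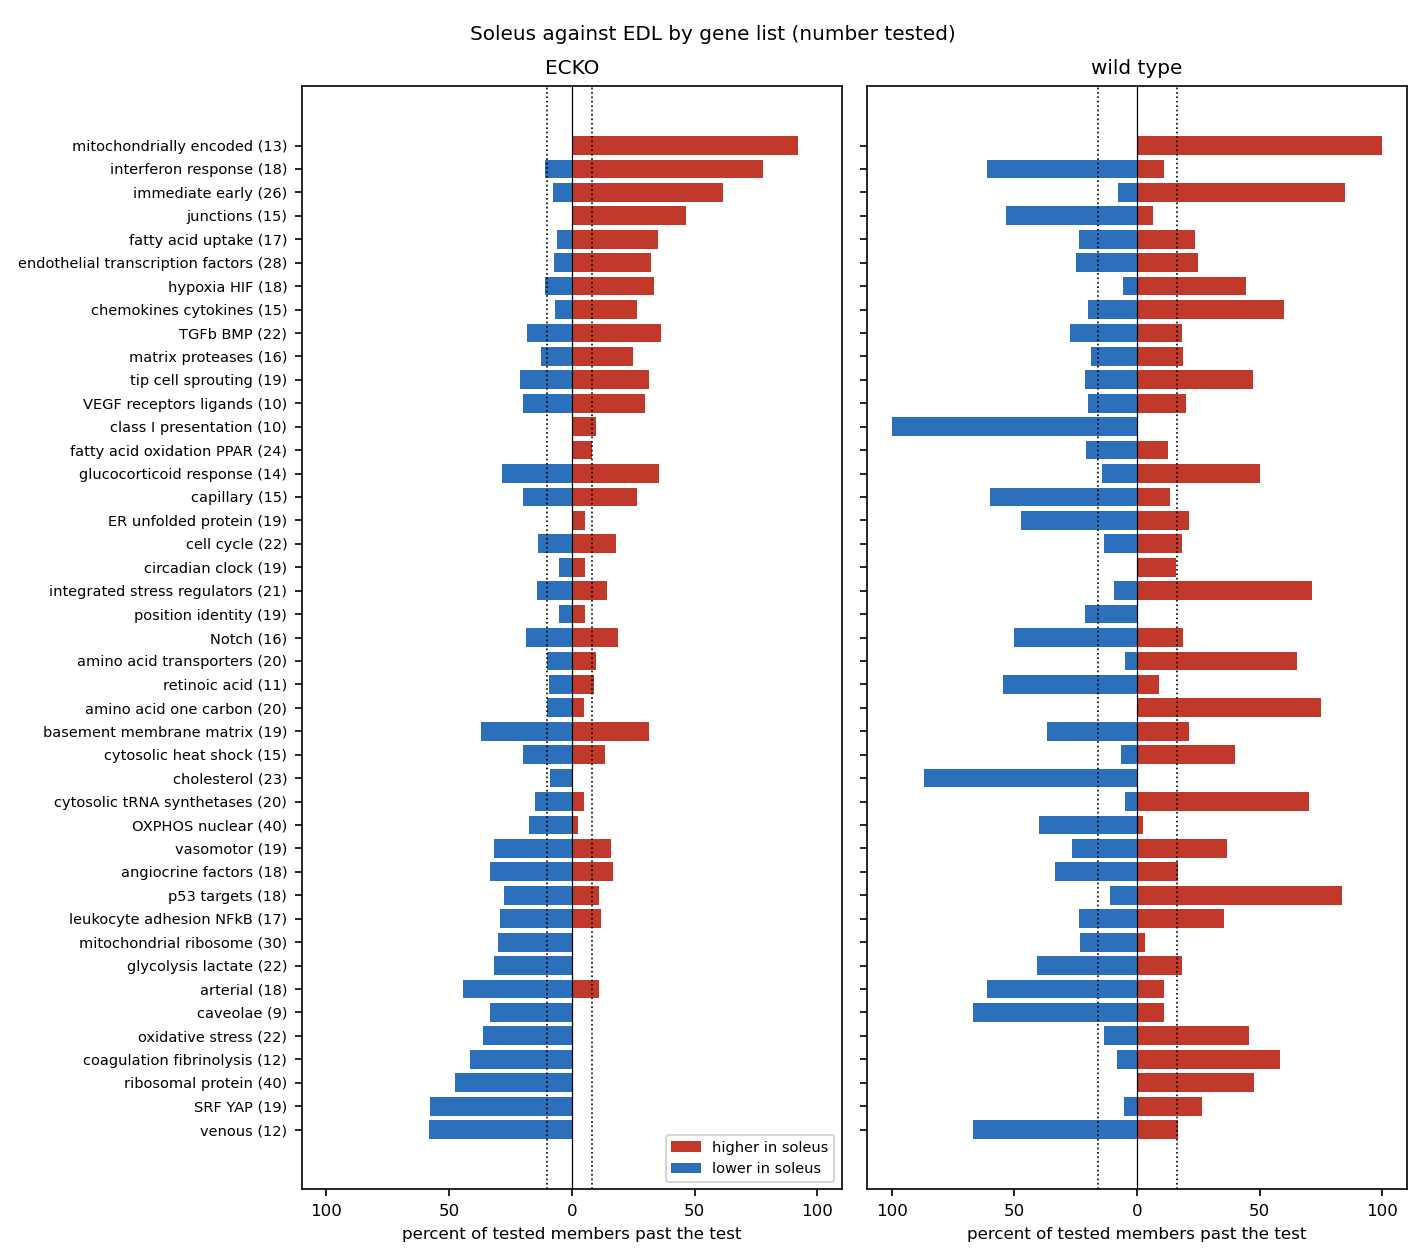
Bars give, for each of the 43 pathway lists with the number of tested members in brackets, the percentage that passed the test as higher (red) or lower (blue) in soleus, in ECKO on the left and wild type on the right. Dotted lines mark the shares over all genes, 8.31% higher and 10.1% lower in ECKO. The interferon list points right in ECKO and left in wild type.

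Among the largest rises, several genes followed the myeloid or the fibroblast order of the libraries. Spp1, osteopontin, stood at 34.5, 33.7, 34.4, 21.2 and 14.6 CPM against 3.57 to 4.98 CPM (2.70 ± 0.21, adjusted p = 5.8e-10), a larger difference than in wild type (0.70, interaction 2.0). Gpnmb, a gene of lysosome-rich cells such as macrophages, stood at 13.3, 12.2, 9.45, 8.82 and 6.95 CPM against 1.69 to 2.90 CPM (2.01 ± 0.18), a smaller difference than in wild type (6.75). Lcn2, lipocalin, stood at 80.2, 76.7, 58.0, 27.4 and 25.6 CPM against 14.0 to 17.6 CPM (1.75 ± 0.23). These 3 genes, like Adamts4 and Cxcr4, were highest in libraries 1 to 3, in which the myeloid level was highest. The same libraries held Y-linked RNA and had the lowest fibroblast levels, and these orders cannot be told apart here. Myeloid markers summed to 399 to 513 CPM in wild-type soleus and 45 to 103 CPM in soleus ECKO. The interaction was positive for Spp1, Adamts4 (2.3) and Cxcr4 (0.82) and negative for Gpnmb (-4.74). The part of myeloid RNA in these genes was not tested. The matrix genes Thbs4 (5.94, 6.15, 33.3, 57.8 and 62.2 against 8.94 to 12 CPM, 1.65 ± 0.56, adjusted p = 0.04) and Cilp (0.495, 0.473, 12.5, 21.0 and 23.9 against 1.31 to 3.32 CPM, 2.44 ± 0.80, adjusted p = 0.033) were high in libraries 3, 4 and 5 alone, as the fibroblast level was. Both lost their calls without libraries 4 and 5 (0.55 and 1.13) and when single libraries were left out. Gbp2b stood at 31.0, 34.2, 15.9, 0 and 0 CPM and at 0 to 0.117 CPM in EDL ECKO, so it was present in the 3 libraries with Y-linked RNA.

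Among the largest falls, Cbr2, a carbonyl reductase, stood at 1.06, 0.946, 1.09, 1.19 and 1.42 CPM against 7.39, 7.31, 5.28, 6.91 and 7.49 CPM (-2.55 ± 0.19, adjusted p = 2.4e-10), with -1.15 in wild type. Tmem171 stood at 8.62, 8.27, 9.27, 5.51 and 13.6 CPM against 35.5 to 41.0 CPM (-2.08 ± 0.16), and Rnf39, a RING finger gene, at 18.3 ± 4.89 against 50.3 ± 3.15 CPM (-1.44 ± 0.12). Both were higher in wild-type soleus (0.88 and 0.63) and had interaction calls. Cyp1a1, the aryl hydrocarbon receptor target, was lower in both genotypes (60.5 ± 12.8 against 158 ± 6.46 CPM, -1.38 ± 0.093, wild type -1.18). Snhg15, a small nucleolar RNA host gene, was lower in ECKO and higher in wild-type soleus (14.5 ± 1.20 against 29.9 ± 0.731 CPM, -1.04 ± 0.085, wild type 1.63). Soleus ECKO library 5 was the highest and library 4 the lowest of the soleus group for Ankrd1, Acta2, Tagln, Ccn2, Tmem171 and Cyp1a1, and all 5 remained below EDL.

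**Figure D5:**
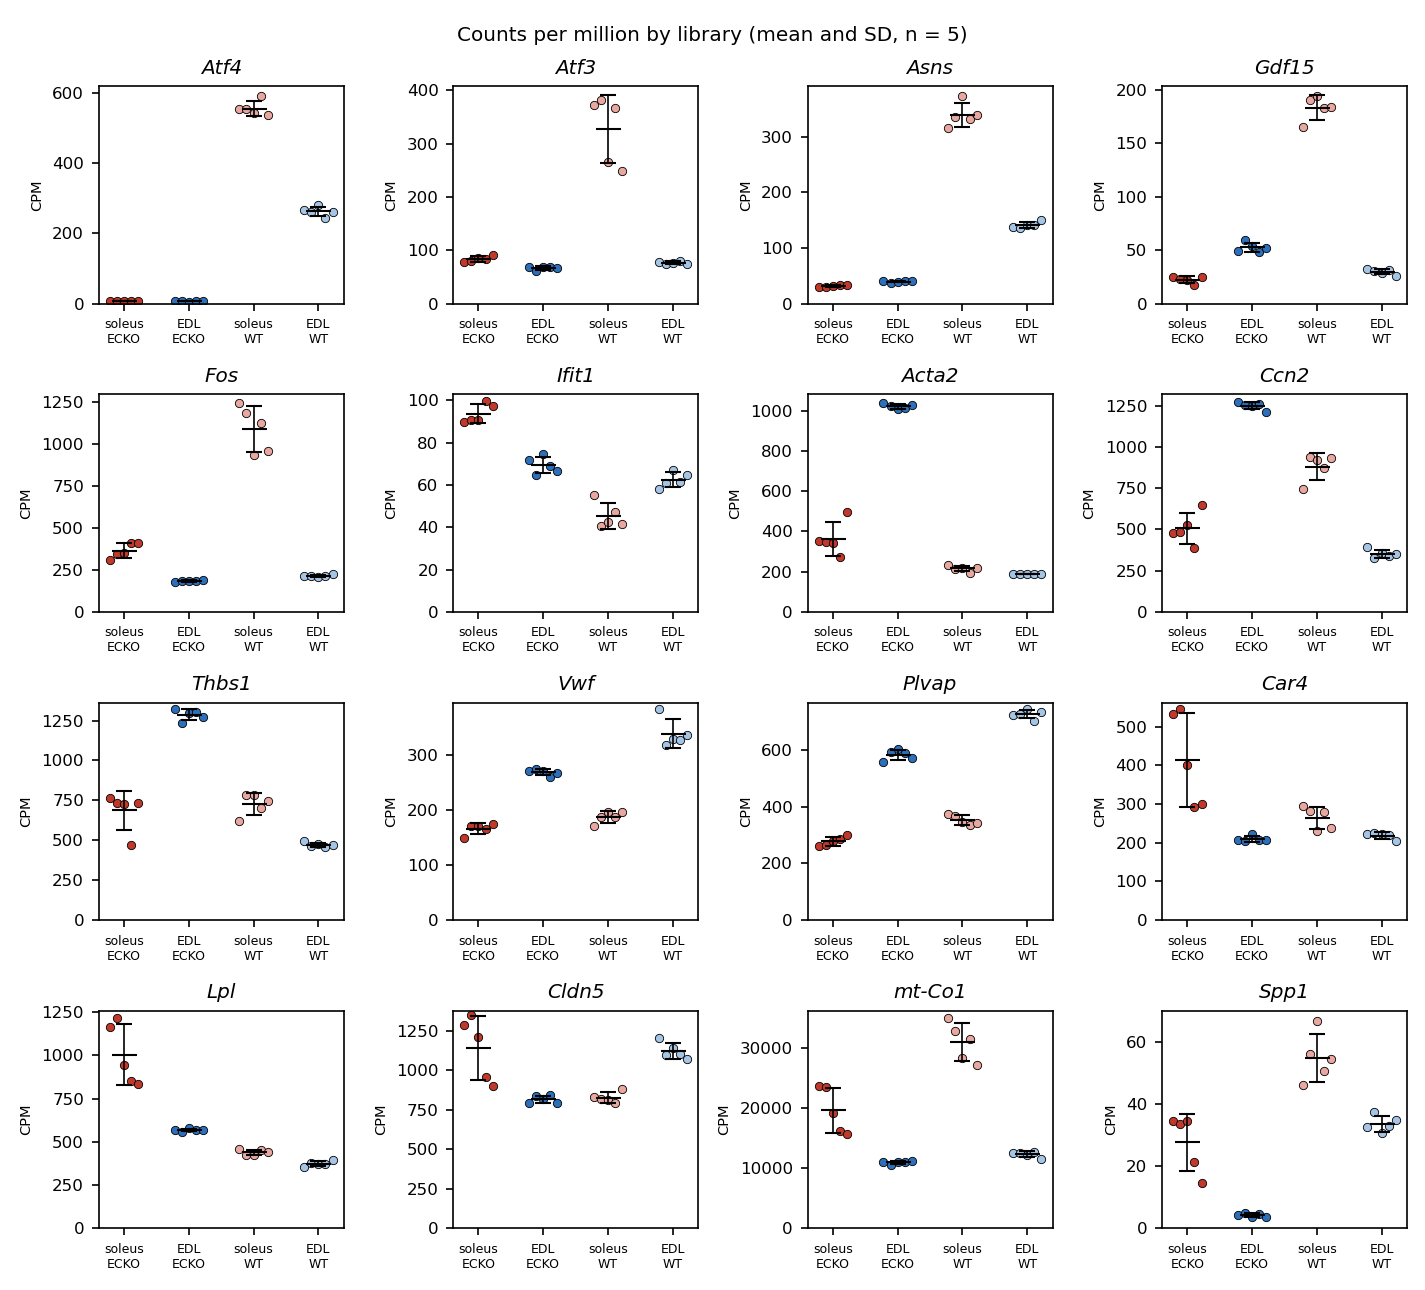
Points are single libraries in CPM for 16 genes in the 4 groups, with the mean and SD (n = 5). For Acta2, Ccn2 and Thbs1 the EDL ECKO group is the highest of the 4, for Plvap and Vwf soleus is below EDL in both genotypes, and for Atf4 both ECKO groups lie near 0.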

How the data were processed

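Messenger RNA libraries were made with a stranded kit and read from 1 end, per the labels' protocols. The submitters' processing notes name kallisto, DESeq2 and the build GRCh38.p13 without versions, while the transcript identifiers in the deposited files are mouse. The authors deposited estimated counts per transcript, one table per library, and these were summed per gene with the GENCODE M21 annotation of GRCm38 and rounded to whole numbers before testing. At most 0.221% of the counts of a library had no annotation match. The deposited TPM values of the same tables were used only to recompute Atf4, Atf3 and the mitochondrially encoded share.

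Libraries held 8013223 to 21720127 counts. The most abundant gene, CT010467.1, took 8.907% to 11.425% of the ECKO counts. No 2 libraries of a group agreed within counting noise. All 20 libraries and 4 group means entered 1 edgeR quasi-likelihood fit (edgeR 4.0.16, R 4.3.3, TMM scaling, filterByExpr), which gave the muscle difference in each genotype and the interaction. Values after ± are SD for CPM and SE for log2 differences, n is 5 libraries a group, and adjusted p is by Benjamini-Hochberg over all genes tested, with a threshold of 0.05. A few single values were compared by exact permutation (Python 3.11.15, numpy 2.4.6). The steps were tested on simulated data with 1 spread per gene for all 4 groups and independent libraries. In the data the spread differed between soleus ECKO (13.4%) and EDL ECKO (6.83%), so the simulation checks the steps and not the calls made here.

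The members, the 43 pathway and 14 cell type lists and the tests were chosen with earlier results of these data known. No gene of the lymphoid marker list passed the low-count filter. Genes were taken by rule: the 15 largest rises and 15 largest falls with at least 4 CPM in the higher group, up to 6 members a list by smallest adjusted p and members called against the rest of their list, any member of lists of 20 or fewer, the 10 largest interactions of each kind and the 6 called genes of highest level in each direction. The text takes part of the genes this rule gives, picked after their values were seen. Gbp2b was chosen after its values were seen.

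The sources used here do not give the strand setting of the quantification, and 47 of the 117 called genes named overlap another annotated gene and are uncertain: Atf3, Glul, Slc6a6, Wars, Gclm, Txnrd1, Junb, Fosl1, Ccl2, Hspa1a, Ifi35, Ccn2, Fhl2, Tagln, Thbs1, Fn1, Tgfb2, Adm, Edn1, Ddah1, Ackr1, Slco2a1, Selp, Plvap, Gja5, Eln, Pparg, Fabp3, mt-Co1, Rps18, Bmp6, Dll4, Nid2, Col18a1, Adamts4, Spp1, Snhg15, Bnip3, Ndrg1, Errfi1, Mrps18b, Tbx3, Ccl21a, Foxf2, Rps27rt, Efhd1 and Ctsc. Genes with near-identical copies, such as Ifit1, Ifit3, Hspa1a, Actb, Eno1, Ldha and the ribosomal, mitochondrially encoded and haemoglobin genes, are uncertain as well. Alternatives were limma 3.58.1 (voom, with and without group weights), DESeq2 1.42.0, and relative log expression scaling within edgeR. Others were no low-count filter, only the groups compared, a replicate block, transcript length offsets and other library sizes. Marker levels or the Y-linked share also served as covariates, and libraries were left out.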

Additional observations from a re-analysis of the deposited data

Results flagged for a closer look

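Atf4, Atf3 and 29 of the genes with the largest muscle differences in ECKO (those with at least 10 counts summed over the libraries of each ECKO group) were screened for a difference between genotypes and, in 64 groups of 5 libraries, for a single library far from the others. The causes of the following values were not tested.

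The muscle difference was smaller or turned in ECKO, by the edgeR interaction on the log2 scale, for Atf4 (-0.89, adjusted p = 1.2e-07), Atf3 (-1.76, adjusted p = 7.6e-11) and Gpnmb (-4.74, adjusted p = 3.3e-12). It turned from higher to lower in soleus for Ankrd1 (-4.45, adjusted p = 2e-13), Tmem171 (-2.96, adjusted p = 8.1e-10) and Rnf39 (-2.07, adjusted p = 2.9e-09). The difference was more positive in ECKO for Spp1 (2.0, adjusted p = 2.2e-06), Adamts4 (2.3, adjusted p = 3.2e-06) and Cxcr4 (0.82, adjusted p = 0.033). The same held for Akr1b8, an aldo-keto reductase gene (1.09, adjusted p = 0.0024), at 5.77 ± 1.03 against 1.87 ± 0.498 CPM, and for Marcksl1, a calmodulin-binding protein gene (1.1, adjusted p = 0.00072), at 24.1 ± 6.42 against 7.99 ± 1.78 CPM. Soleus was lower in ECKO, with a more negative difference than in wild type, for Cbr2 (-1.4, adjusted p = 0.00014), Fhl2 (-1.83, adjusted p = 3.1e-07) and Efhd1 (-0.96, adjusted p = 0.00032, 7.74 ± 1.01 against 20.9 ± 2.29 CPM). Of these, only Fhl2 had a positive wild-type difference. Spon2 was lower in soleus in both genotypes, with a smaller difference in ECKO (interaction 1.07, adjusted p = 0.025, 1.08 ± 0.667 against 5.01 ± 0.677 CPM). Ctsc, the cathepsin C gene (-1.56, adjusted p = 1.9e-05), stood at 2.44 ± 0.745 against 6.66 ± 1.37 CPM and was not called in wild type. Foxf2 (-2.19, adjusted p = 0.027) stood at 4.78 ± 3.48 against 12.8 ± 6.64 CPM, and Rps27rt (-1.84, adjusted p = 0.0098) at 7.01 ± 8.71 against 19.8 ± 2.87 CPM, and neither was called in wild type.

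Single libraries stood apart in 6 of the groups screened, where chance flags about 1 in 20 groups. The gap to the nearest library, divided by the range of the group, passed the Dixon limit of 0.71. In soleus ECKO the highest library for Rps27rt stood at 22.4 CPM with the others at 1.1 to 4.39 CPM (ratio 0.846). In EDL ECKO the highest library stood at 2.73 CPM for Akr1b8 (others 1.45 to 1.76, ratio 0.755), at 48.5 CPM for Fhl2 (others 41.5 to 42.8, ratio 0.816) and at 170 CPM for Cyp1a1 (others 153 to 157, ratio 0.807). The lowest EDL ECKO library stood at 5.28 CPM for Cbr2 (others 6.91 to 7.49, ratio 0.738) and at 35.5 CPM for Tmem171 (others 39.6 to 41.0, ratio 0.743).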

How the results depend on the processing

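The counts of 1161 higher and 1412 lower genes in ECKO stayed within 1.5 times under the other settings run, 949 to 1315 higher and 1098 to 1710 lower, with 2 exceptions. With the myeloid level as a covariate 584 genes were higher and 561 lower, and with the fibre level 589 and 575. With the myeloid level the interaction was called higher for 706 and lower for 832 genes, and in wild type 554 were higher and 457 lower in soleus, which with the fibre level became 764 and 510. Pathway lists with at least 1 in 2 of the tested members called in 1 direction, a summary defined after seeing the data, numbered 5, and 2 with the myeloid level, 8 with the Y-linked share as a covariate and 9 without soleus ECKO libraries 4 and 5. The fit with the fibroblast level (1315 higher, 1710 lower) and the fit without libraries 4 and 5 (1224 and 1441) were added after seeing the data. The causes were not tested.

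Of the 117 called genes named, 117 kept their call with relative log expression scaling in edgeR, 114 with DESeq2 and 115 with limma-voom. With the fibre level 93 kept it (19 lost it, 5 turned sign), and with the myeloid level 66 (42 lost it, 9 turned sign). With the myeloid level the log2 difference turned to -0.1 for Ccl2, 0.56 for Rgs5, -0.11 for Car4, -0.21 for Cldn5, -0.59 for Sox18, -0.22 for Cxcr4, 0.31 for Bgn, -0.9 for Lcn2 and 0.67 for Ccl21a. With the fibre level it turned to 0.03 for Bst2, -0.04 for Mgp, 0.04 for Aqp1, -1.88 for Thbs4 and -2.68 for Cilp. No setting run turned another of the 117.

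When each of the 20 libraries was left out in turn, 968 to 1179 genes were higher and 1195 to 1440 lower in ECKO. The difference of Atf4 ranged from 0.515 to 1.18 CPM, that of Atf3 from 15.1 to 18.2 CPM and that of the mitochondrially encoded share from 2.07 to 2.73 percentage points. With TPM the permutation p of Atf4 was 0.28. In these fits 110 of the 117 genes kept their call throughout. The call was lost for Fosl1 without soleus ECKO 4 or 5 or EDL ECKO 3, 4 or 5 (-0.45 to -0.36, adjusted p 0.059 to 0.076). It was lost for Bst2 without soleus 3, 4 or 5 or EDL 2, 3 or 4 (-0.14 to -0.12, adjusted p 0.064 to 0.1) and for Ifi35 without soleus 4 or 5 or EDL 2, 3 or 4 (-0.15 to -0.12, adjusted p 0.052 to 0.12). Thbs4 lost it without soleus 3, 4 or 5 or any EDL ECKO library (1.27 to 1.68, adjusted p 0.062 to 0.12), Cilp without soleus 3, 4 or 5 or EDL 1, 2, 4 or 5 (1.99 to 2.51, adjusted p 0.053 to 0.094), Foxf2 without soleus 3 or EDL 2, 3 or 4 (-1.51 to -1.19, adjusted p 0.064 to 0.14) and P4ha2 without soleus 3 or 4 or EDL 3 (-0.23 to -0.21, adjusted p 0.055 to 0.061).

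Lists with few calls moved when single ECKO libraries were left out. Lower nuclear genes of the respiratory chain numbered 4 to 11 in place of 7, with 11 without soleus 1 and 4 without soleus 2, 3 or 4. Lower heat shock genes numbered 1 in place of 3 without soleus 4 or 5 or EDL 1 or 2. Notch genes numbered 5 higher and 4 lower, in place of 3 and 3, without soleus 4 or 5. Higher genes of the unfolded protein response numbered 4 in place of 1 without soleus 4, and 4 with DESeq2. Lower tRNA synthetases numbered 5 in place of 3 without soleus 2, higher stress regulators 1 in place of 3 without EDL 1 or 2, and lower p53 targets 2 in place of 5 without EDL 2.

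Libraries with the same number did not deviate together (correlations of -0.0585 to 0.0324), so the numbers were not taken to pair samples. With a replicate block 1099 genes were higher and 1343 lower in ECKO, and the interaction was called higher for 1343 and lower for 1721. Genes below the low-count filter were not tested, which is the limit that depth sets on these counts.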

Other observations

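Targets of the hypoxia-inducible factors were higher in soleus ECKO for 6 of 18 members tested and lower for 2 (5 and 1 without libraries 1 to 3, 7 and 2 without 4 and 5), against 8 and 1 in wild type. Bnip3, a mitophagy receptor, was higher (76.3 ± 6.74 against 49.2 ± 1.97 CPM, 0.63 ± 0.061, adjusted p = 2.4e-08), with 0.47 in wild type and no interaction call. Ndrg1 (491 ± 26.7 against 373 ± 12.6 CPM, 0.40 ± 0.043) and Egln1, the main oxygen-sensing prolyl hydroxylase (0.54 ± 0.10), were higher with interaction calls. Adm, given above, was one of the lower members, and the collagen prolyl hydroxylase P4ha2 (-0.25 ± 0.074) was the other, and it lost its call without libraries 1 to 3 and when single libraries were left out. Glucocorticoid response genes were higher for 5 of 14 and lower for 4 (4 and 5 without libraries 1 to 3, 7 and 4 without 4 and 5). Sgk1, a kinase of salt and stress signalling, stood at 1770 ± 34.3 against 1300 ± 20.3 CPM (0.44 ± 0.065, adjusted p = 1.4e-05), with 0.49 in wild type. Errfi1, a brake on the EGF receptor, was lower in ECKO (-0.30 ± 0.047) and higher in wild-type soleus (0.51). Mitochondrial ribosome genes were lower for 9 of 30 and higher for none (lower for 7 without libraries 1 to 3 and for 5 without 4 and 5), with -0.62 ± 0.071 for Mrps18b. Of 19 genes of the unfolded protein response of the endoplasmic reticulum 1 was higher and none lower in ECKO (0 and 3 without libraries 1 to 3, 3 and 0 without 4 and 5), against 4 and 9 in wild type, with a higher interaction for 10 and a lower one for 4.

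The T-box factor gene Tbx3 was higher in soleus ECKO (85.7 ± 16.7 against 47.6 ± 1.96 CPM, 0.84 ± 0.12) and negative without a call in wild type (-0.18), and it was the higher 1 of 19 genes of limb position and patterning. Markers of lymphatic endothelium pointed both ways. Pdpn, podoplanin, was higher (12.1 ± 2.61 against 4.68 ± 0.821 CPM, 1.35 ± 0.17), and Ccl21a, a chemokine with near-identical copies, was lower (55.4 ± 28.6 against 126 ± 6.29 CPM, -1.16 ± 0.21), although its difference turned sign with the myeloid level as a covariate (0.67). All 5 erythroid markers were higher in both genotypes, and in ECKO 3 of them without libraries 4 and 5, with the haemoglobin gene Hba-a1, which has a near-identical copy, at 681 ± 180 against 450 ± 12.3 CPM (0.60 ± 0.12).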
